A study of Mus musculus with 16 samples.

Results

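Lung-LMP1 is a group of 3 RNA-seq libraries from mouse tumour organoids, which are 3-dimensional cultures of tumour cells. It was compared here with 3 libraries of normal organoids, called the normal comparator. These 6 libraries were chosen by their column headings, out of 16 libraries in 6 groups in the series, and their comparison is not among the authors' tables used here. All organoids came from C57BL/6 mice, and polyadenylated RNA was sequenced. The Lung-LMP1 organoids are labelled Trp53-/-, Myc, sgCdkn2a and LMP1 (abbreviated TMPL) and as metastasis, and their tumours arose in recipient mice that had received transplants into the nasopharynx. Normal samples are labelled untreated, with none of these alterations named. The group titled LMP1 carries the same genotype and the metastasis label, while Ctr and Lung-Ctr carry Trp53-/-, Myc and sgCdkn2a without LMP1 (abbreviated TMP) and are labelled primary. What the prefix Lung stands for, the promoters that drive Myc and LMP1, the allele of Trp53, the age and sex of the mice, the number of clones per group and whether replicates are separate animals or cultures are not stated in the labels.

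The tumour suppressor p53, encoded by Trp53, halts the cell cycle and starts cell death after damage, and Cdkn2a encodes p16INK4a, which restrains the kinases that open S phase, and p19ARF, which stabilises p53. Myc is a transcription factor that binds E-box sequences and drives ribosome production, nucleotide synthesis and cell division. LMP1, the latent membrane protein 1 of Epstein-Barr virus, is found in nasopharyngeal carcinoma, where it acts like a permanently active CD40 receptor and signals through TRAF adaptors to NF-kB and AP-1. Normal nasal and pharyngeal epithelium holds basal, secretory and ciliated cells, olfactory supporting and gland cells rich in detoxifying enzymes, and patches of squamous cells.

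Totals were 12535166 to 16338921 counts per Lung-LMP1 library and 16573082 to 17631461 per comparator library, so that 3 counts in a library equal 0.17 to 0.24 CPM (counts scaled to a library total of 1000000). Values below are listed for replicates 1, 2 and 3 in that order. The comparator columns are headed as normal lung in a table named for normal nasopharynx. Their log2 counts correlated with the same-numbered Normal_nasopha columns of another table at r = 0.904 to 0.907 (12348 to 12798 genes) and with the Normal_lung columns at r = 0.628 to 0.654 (12816 to 13307 genes), which is a description, since genes are not independent replicates. Identical counts were found for 1.37% to 1.82% of genes between the same-numbered columns. Sftpc, the surfactant protein that marks alveolar type II cells, was at 134, 31.4 and 30.1 CPM in the comparator and at 37317, 45810 and 40094 CPM in Normal_lung, and Nkx2-1, the lung and thyroid regulator, was at 3.56, 0.51 and 0.601 CPM and at 990.4, 788 and 967 CPM. The 3 Lung-LMP1 libraries were alike (r of log2 counts 0.953 to 0.977). Comparator replicate 1 stood apart from its group: its r was 0.899 to 0.904 with Lung-LMP1 and 0.906 to 0.924 with the other comparator libraries, which had r of 0.805 to 0.838 with Lung-LMP1. Results that rest on this library are given with and without it.

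The genes named in the genotype were measured first. Trp53 (chr11:69580359-69591873, plus strand, GRCm38) was at 156, 100.3 and 63.3 CPM in the comparator and at 81.8, 100.4 and 106 CPM in Lung-LMP1, with overlapping groups and no call (log2 fold change -0.13, SE of 0.33, edgeR adjusted p = 0.79). The tumour values lie within the range of the comparator, although the genotype is labelled Trp53-/-. Cdkn2a (chr4:89274471-89294653, minus strand) was at 4.83, 5.44 and 7.82 CPM in the comparator and at 165, 292 and 187 CPM in Lung-LMP1, and every tumour library was above every normal one (log2 fold change 5.17, SE of 0.35, edgeR adjusted p = 0.00758). Guide edits can leave a transcript in place, and neither the edited site nor the deleted part of Trp53 is described, so these counts do not check the labels of either gene. Myc (chr15:61985391-61990374, plus strand) was at 100, 75.9 and 62.2 CPM and at 1211, 583 and 1068 CPM, again without overlap (log2 fold change 3.61, SE of 0.37, edgeR adjusted p = 0.00927). Reads from a Myc transgene and from the endogenous gene cannot be told apart in a count per gene. The viral LMP1 transcript was not analysed here.

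Sex-linked genes also separated the groups. Xist, the RNA that coats the inactive X chromosome, was at 1091, 1122 and 1038 CPM in the comparator and at 0.339, 0.49 and 0.638 CPM in Lung-LMP1 (log2 fold change -11.09, SE of 0.34, edgeR adjusted p = 7.23e-05). The Y-linked translation factor gene Eif2s3y had 0 counts in all comparator libraries and was at 51.3, 73.9 and 79.4 CPM in Lung-LMP1, at least 1155-fold higher against a floor of 3 counts over the comparator group (edgeR adjusted p = 0.00758). Ddx3y, Uty and Kdm5d, also Y-linked, had 0 counts in the comparator and were at least 750.2-fold, 498-fold and 474-fold higher. Sex of the source animals and tumour state differ together here and cannot be told apart for any gene below.

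**Figure D1:**
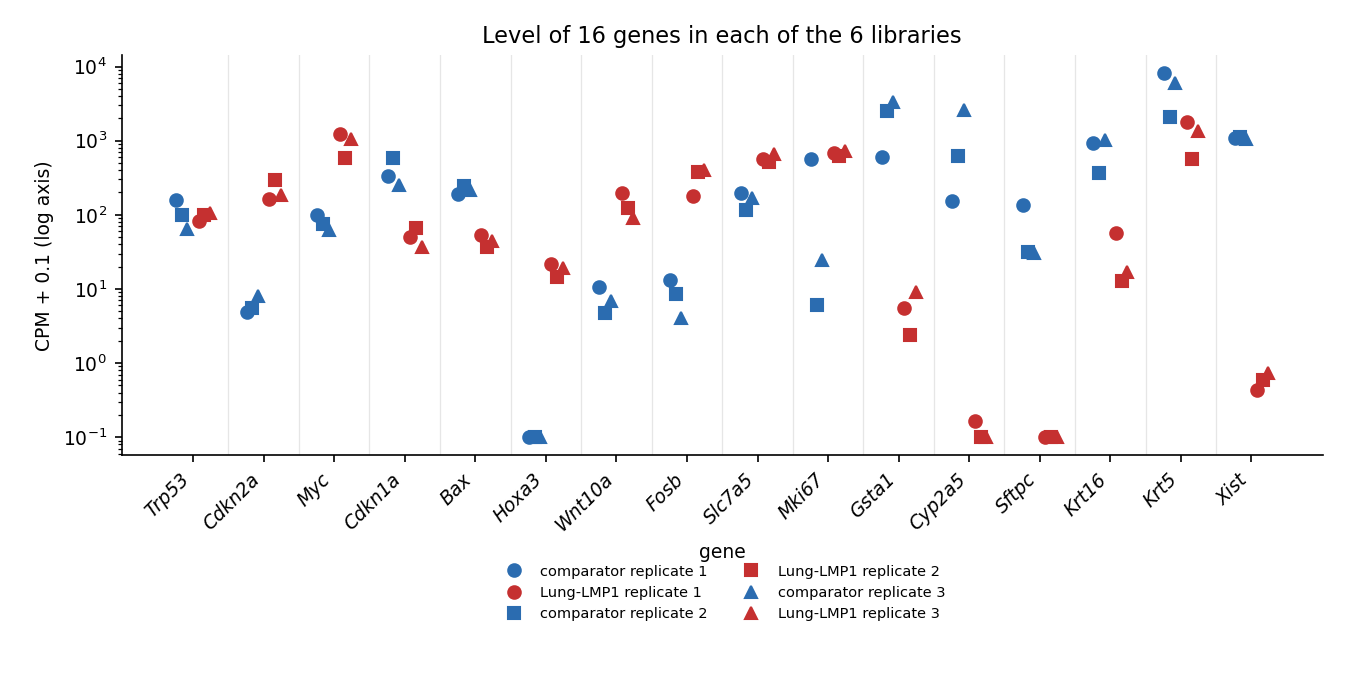
Level of 16 genes in each of the 6 libraries, in CPM plus 0.1 on a log axis, with comparator libraries in blue and Lung-LMP1 libraries in red and 1 marker shape per replicate number. Cdkn2a, Myc, Hoxa3, Wnt10a, Fosb and Slc7a5 sit higher in all 3 tumour libraries, Cdkn1a, Bax, Gsta1, Cyp2a5, Sftpc, Krt16, Krt5 and Xist sit lower, and Trp53 overlaps; Mki67 is at 571 CPM in comparator replicate 1 and at 5.96 and 24.1 CPM in the other two.

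Of 12934 genes tested, 2937 (22.7%) passed edgeR's quasi-likelihood F-test at an adjusted p under 0.05 (Benjamini-Hochberg). In Lung-LMP1, 1166 (9.01%) were higher and 1771 (13.7%) were lower, and 5291 genes had an unadjusted p under 0.05. The median log2 fold change was -0.06. Upper-quartile scaling moved that median to -0.20 and gave 892 higher and 2194 lower genes, so that 28.9% of calls were higher instead of 39.7%. Without a model, 2838 of the genes tested (21.9%) had every Lung-LMP1 library above every comparator library, and 3336 (25.8%) had every one below.

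The count of calls depended on single libraries. It was 4480 without comparator replicate 1 (15.9% higher and 17.8% lower, of 13288 tested), 2355 without comparator replicate 2 and 756 without comparator replicate 3. It was 282 without Lung-LMP1 replicate 1, 952 without replicate 2 and 3 without replicate 3, when the genes that passed were Cdkn2a, Xist and Zfhx4 (the last of them named after its values were seen) and 3815 had an unadjusted p under 0.05. The text names 109 called genes, of which 3 kept the call without Lung-LMP1 replicate 3, 43 without replicate 1, 71 without replicate 2, and 106, 98 and 63 without comparator replicates 1, 2 and 3. In none of these 6 fits did a named call change direction, and the gene lists described below kept no call without Lung-LMP1 replicate 3 apart from Cdkn2a. Of the called genes named, Id1 is the one whose groups overlap. The adjusted p-values below hold for the fit with all 6 libraries, and each value per library is printed so that the size and overlap of the groups can be read without them. A gene near the count floor in either group passed the filter on low counts through the other group. Its direction was then fixed by that filter, and the counts of calls per list below include such genes. In bulk samples, fewer cells of a type and less RNA per cell cannot be told apart.

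**Figure D2:**
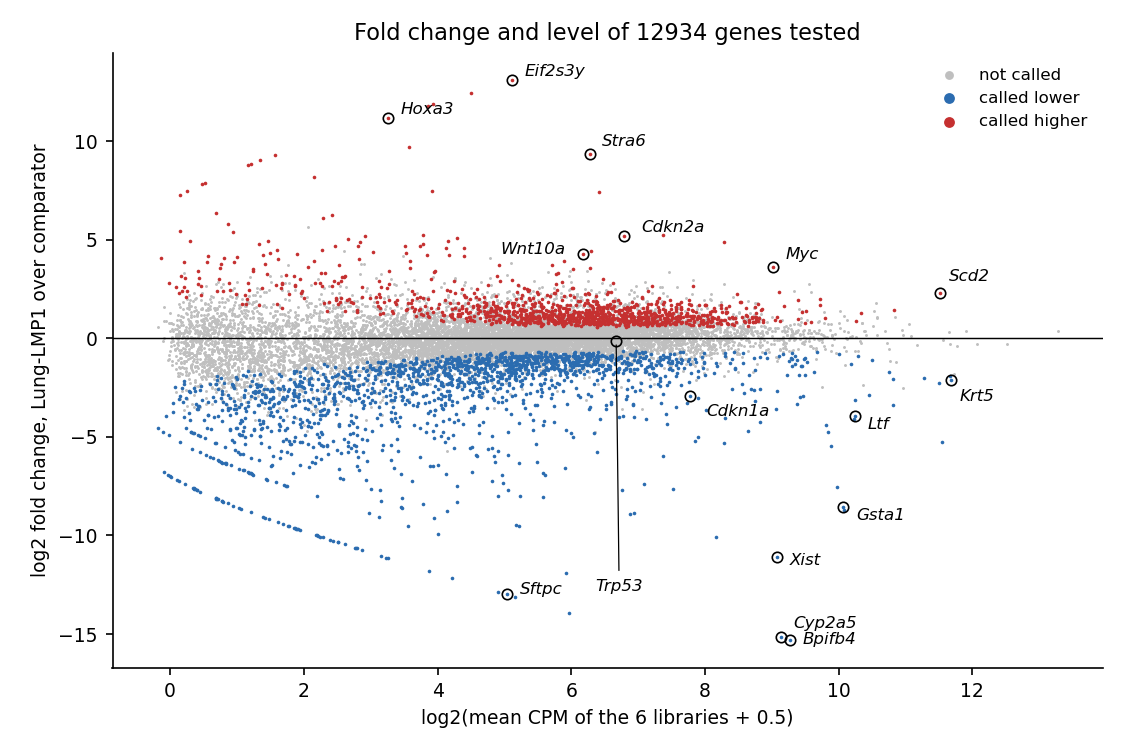
Log2 fold change of Lung-LMP1 over the comparator (vertical axis) against the mean level over the 6 libraries (horizontal axis, log2 of CPM plus 0.5) for the 12934 genes tested, with 1166 called higher in red, 1771 called lower in blue and the rest in grey. Fitted fold changes of genes at 0 counts in one group, such as Hoxa3, Eif2s3y and Sftpc, depend on the prior count of the fit and show direction only.

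**Figure D3:**
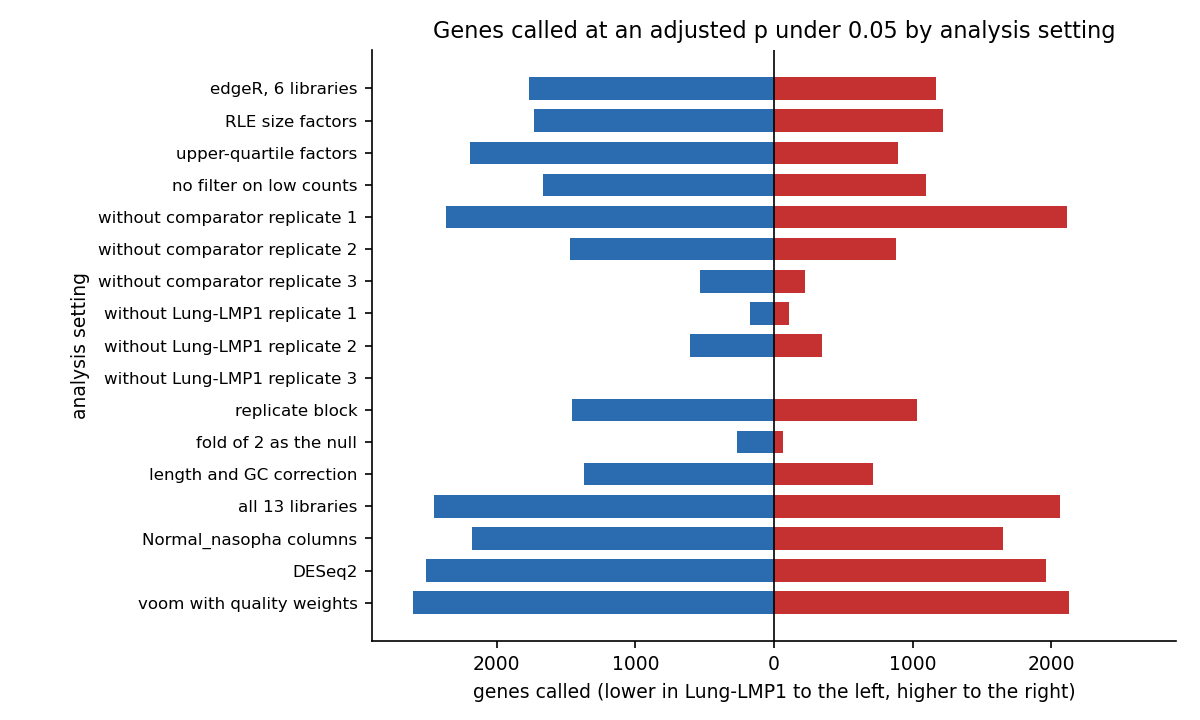
Genes called lower (blue, to the left) and higher (red, to the right) at an adjusted p under 0.05 under each analysis setting, the fit of the 6 libraries at the top. The totals run from 3 without Lung-LMP1 replicate 3 to 4728 with voom quality weights, and lower calls outnumber higher calls in every setting drawn.

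Among targets of p53 the calls ran in the downward direction only. Of 28 tested, 13 fell and 0 rose, where 13.7% of all genes fell. Every tumour library was below every normal one for 18 of the 28, and for 25.8% of all genes tested. Their median log2 fold change was -0.92, and it lay between -1.02 and -0.82 when any 1 library was left out. The count of 13 became 13, 9, 6, 4, 6 and 0 with comparator replicates 1, 2 and 3 and then Lung-LMP1 replicates 1, 2 and 3 left out, an order used for such series of counts below. The mean log2(CPM + 0.5) of the list was 6.12, 6.41 and 6.35 in the comparator and 4.86, 5.02 and 4.98 in Lung-LMP1. Cdkn1a, which encodes the CDK inhibitor p21, was at 334, 575 and 249 CPM in the comparator and at 50.5, 65.4 and 36.5 CPM in Lung-LMP1 (log2 fold change -2.91, SE of 0.39, edgeR adjusted p = 0.0111). Ccng1, which encodes cyclin G1, was nearly constant within each group, at 356, 365 and 351 CPM and at 79.4, 76.3 and 73.1 CPM (log2 fold change -2.21, SE of 0.18, edgeR adjusted p = 0.0078). Phlda3, an inhibitor of Akt signalling, was at 388, 324 and 553 CPM and at 78, 37.8 and 38.2 CPM (log2 fold change -3.02, SE of 0.39, edgeR adjusted p = 0.0105). None of these 3 genes overlapped between groups. Ddit4l, an inhibitor of mTOR signalling, was at 24.6, 10.8 and 26.8 CPM and at 0.0677, 0 and 0.479 CPM (log2 fold change -6.87, SE of 1.01, edgeR adjusted p = 0.0132), close to the detection floor in the tumour libraries. Other targets did not pass: Plk2, a kinase induced after stress, was at 322, 463 and 277 CPM and at 179.9, 219 and 217 CPM (edgeR adjusted p = 0.0601), and Perp, a desmosome protein, was at 740.0, 450.2 and 945 CPM and at 499, 370.4 and 438 CPM (edgeR adjusted p = 0.138). Plk2 was lower in all 3 tumour libraries, and Perp overlapped.

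Among the Bcl2 family and its partners, pro-death members were found on both sides. Of 18 tested, 5 fell and 2 rose, where 13.7% of all genes fell and 9.01% rose (6, 2, 2, 2, 2 and 0 fell with each library left out), with a median log2 fold change of 0.01 (2 fell once fold changes were corrected for the length and GC content of transcripts). Bax, which permeabilises the mitochondrial outer membrane, was at 189.8, 247 and 217 CPM in the comparator and at 53.5, 36.5 and 44.5 CPM in Lung-LMP1 (log2 fold change -2.26, SE of 0.23, edgeR adjusted p = 0.00927). Bad, a BH3-only sensitiser, was at 33, 32.6 and 30.2 CPM and at 9.62, 9.12 and 8.62 CPM (log2 fold change -1.79, SE of 0.23, edgeR adjusted p = 0.0101). Bbc3, which encodes the p53 target Puma, was at 8.63, 31.4 and 23 CPM and at 2.57, 5.2 and 5.19 CPM (log2 fold change -2.27, SE of 0.55, edgeR adjusted p = 0.0307). These 3 pro-death genes were lower without overlap. Bok, a relative of Bax, went the other way, at 15, 1.87 and 4.69 CPM and at 62.4, 45.3 and 51.1 CPM (log2 fold change 2.9, SE of 0.71, edgeR adjusted p = 0.0312), while the survival protein Mcl1 overlapped, at 316, 327 and 223 CPM and at 260.3, 254 and 225 CPM (edgeR adjusted p = 0.487).

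Cell division genes were uniformly high in Lung-LMP1 and split within the comparator. For mitosis genes the mean log2(CPM + 0.5) was 7.63, 7.66 and 7.87 in Lung-LMP1, and 7.04, 1.76 and 3.15 in the comparator. With all 6 libraries, 0 of 21 mitosis genes passed in edgeR (0 at an unadjusted p under 0.05, 5 higher by DESeq2). Even so, every tumour library was above every normal one for 20 of the 21, and for 21.9% of all genes tested. Without comparator replicate 1, all 21 were higher, against 15.9% of all genes, and the median log2 fold change went from 2.16 to 5.48. Mki67, the proliferation marker Ki-67, was at 571, 5.96 and 24.1 CPM in the comparator and at 680.5, 628 and 729 CPM in Lung-LMP1 (log2 fold change 1.79, SE of 1.39, edgeR adjusted p = 0.361; without comparator replicate 1, log2 fold change 5.55 and edgeR adjusted p = 0.00433). Top2a, the topoisomerase that untangles chromosomes at mitosis, showed the same split, at 571, 9.87 and 40.1 CPM and at 1044, 1004 and 1202 CPM. For both genes comparator replicate 1 lay below every tumour library but much closer to them than replicates 2 and 3 did.

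DNA replication and repair genes had the same shape. Of all genes tested, 9.01% were higher and 13.7% lower with all libraries, and 15.9% and 17.8% without comparator replicate 1. Of 22 S-phase genes, 0 passed with all libraries in edgeR (1 at an unadjusted p under 0.05, 4 higher by DESeq2) and 21 were higher without comparator replicate 1, with medians of 1.49 and 3.73. Pcna, the sliding clamp of DNA polymerase, was at 336, 121 and 81.4 CPM in the comparator and at 372, 286 and 357 CPM in Lung-LMP1, so that comparator replicate 1 lay inside the tumour range. Rrm1, the large subunit of ribonucleotide reductase, was at 271, 18.4 and 43.4 CPM and at 435, 378 and 466 CPM. Of 18 DNA repair genes, 2 were higher with all libraries, near the share of all genes, and 17 without comparator replicate 1. The 2 were the damage-sensing kinases: Atr, at 40.2, 29 and 26.4 CPM and at 109, 88.2 and 106 CPM (log2 fold change 1.68, SE of 0.23, edgeR adjusted p = 0.0117), and Atm, at 54.9, 34.5 and 39.3 CPM and at 92.8, 73.7 and 92.9 CPM (log2 fold change 1.03, SE of 0.24, edgeR adjusted p = 0.0283). Neither kinase overlapped between groups. Among 23 cell cycle controllers 2 fell and 0 rose, smaller shares than those of all genes (7 higher and 3 lower without comparator replicate 1). The 2 that fell were Cdkn1a, given above, and Cdkn2b, the p15INK4b inhibitor that neighbours Cdkn2a, at 54.6, 80.5 and 126 CPM and at 14.4, 40.1 and 24 CPM (log2 fold change -1.72, SE of 0.46, edgeR adjusted p = 0.0384). Cyclin D1 (Ccnd1) overlapped, at 887, 109 and 510.2 CPM and at 674, 661 and 571 CPM (edgeR adjusted p = 0.697).

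**Figure D4:**
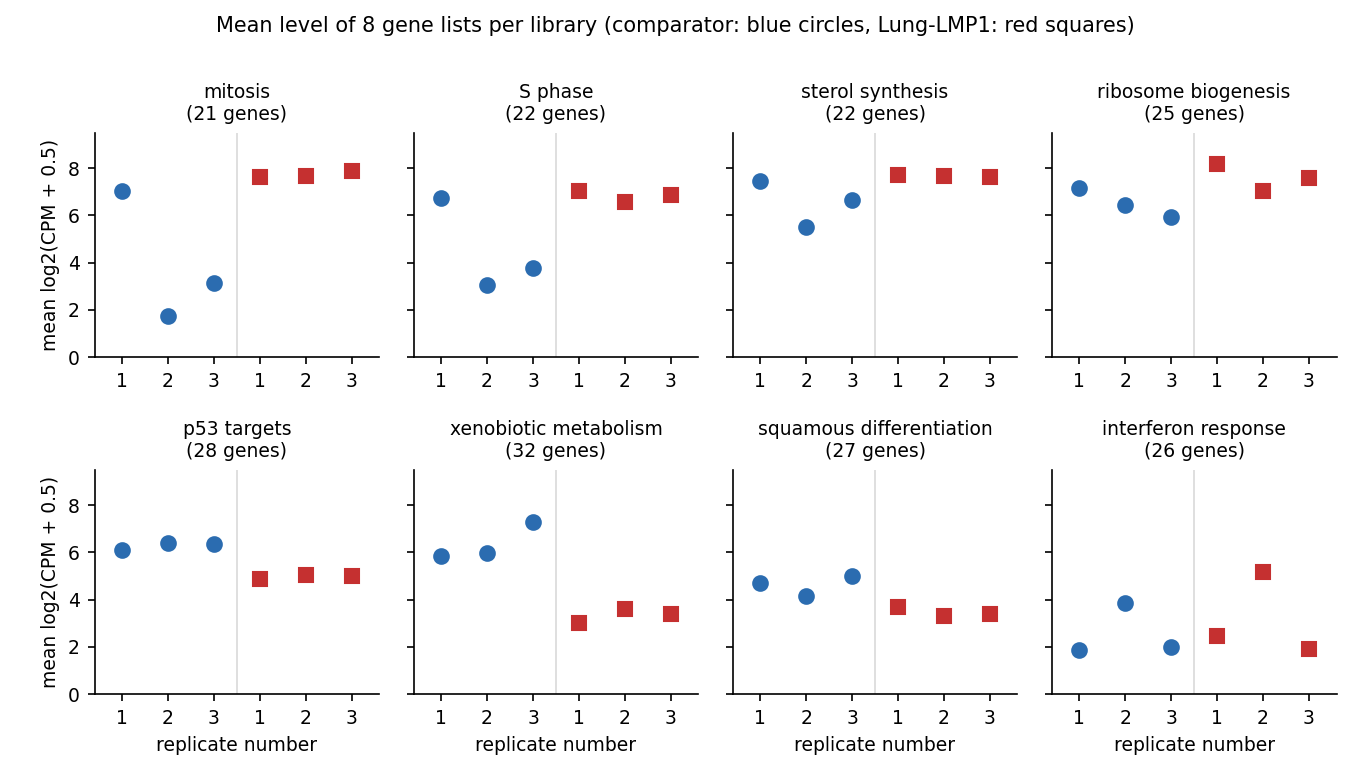
Mean log2(CPM + 0.5) of 8 gene lists in each library, with comparator replicates as blue circles and Lung-LMP1 replicates as red squares. Mitosis genes are at 7.04, 1.76 and 3.15 in the comparator and at 7.63 to 7.87 in the tumour libraries, p53 targets and xenobiotic metabolism genes are lower in all tumour libraries, and interferon response genes are high in 1 library of each group.

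Genes that Myc is known to drive in ribosome production and metabolism had calls in the upward direction only, in numbers that rested on single libraries. Of 25 ribosome biogenesis genes, 6 rose and 0 fell with all libraries, where 9.01% of all genes rose. With each library left out 17, 1, 0, 0, 1 and 0 rose. Every tumour library was above every normal one for 11 of the 25, and for 21.9% of all genes tested. Npm1, the nucleolar chaperone nucleophosmin, was at 982, 709.7 and 570.2 CPM in the comparator and at 2212, 1418 and 1842 CPM in Lung-LMP1 (log2 fold change 1.3, SE of 0.29, edgeR adjusted p = 0.0258). Polr1b, a subunit of RNA polymerase I that transcribes ribosomal RNA, was at 60.9, 23.3 and 22.2 CPM and at 187, 77.5 and 122 CPM (log2 fold change 1.89, SE of 0.51, edgeR adjusted p = 0.0392). Nucleolin (Ncl), at 1219, 740.1 and 515 CPM and at 2998, 1392 and 1973 CPM, did not pass (edgeR adjusted p = 0.0531). Of 23 metabolic Myc targets, 9 rose and 0 fell with all libraries (16, 6, 1, 1, 5 and 0 with each library left out), and the median of 1.10 was 1.69 without comparator replicate 1. Slc7a5, the transporter that brings in leucine and other large amino acids, was at 198, 115 and 170.1 CPM and at 572, 512 and 652 CPM (log2 fold change 1.86, SE of 0.26, edgeR adjusted p = 0.0119). Tfrc, the transferrin receptor that brings in iron, was at 281, 78 and 191 CPM and at 1213, 656 and 901 CPM (log2 fold change 2.35, SE of 0.49, edgeR adjusted p = 0.0216). Shmt2, a mitochondrial enzyme of one-carbon metabolism, was at 251, 161 and 148 CPM and at 451, 399.5 and 519 CPM (log2 fold change 1.31, SE of 0.26, edgeR adjusted p = 0.02). The groups of Npm1, Polr1b, Slc7a5, Tfrc and Shmt2 did not overlap.

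Promoters of these Myc target lists were searched for the E-box CACGTG, which reads the same on both strands, in the 250 bases before the annotated start (RefSeq, GRCm38.p6). It was present in 836 of 9844 promoters of genes tested (8.49%) and in 1634 of 27025 promoters in all (6.05%). Genes called higher held it in 84 of 872 promoters (9.63%) and genes called lower in 106 of 1367 (7.75%). Of the metabolic Myc targets 8 of 21 held it (38.1%), and of the ribosome biogenesis genes 1 of 21 (4.76%). Within both lists together, it was present in 2 of 12 promoters of genes called higher (16.7%) and in 7 of 30 not called (23.3%). The windows of the 2 called genes that hold it are shown because they are where the expression call and the motif meet; capitals mark the E-box, and each is written 5′ to 3′ on the strand of the gene. Both genes were named after their values were seen, and a match of letters is not a measured binding site.
Impdh2, chr9:108560186-108560435, plus strand, E-box beginning 110 bases before the start: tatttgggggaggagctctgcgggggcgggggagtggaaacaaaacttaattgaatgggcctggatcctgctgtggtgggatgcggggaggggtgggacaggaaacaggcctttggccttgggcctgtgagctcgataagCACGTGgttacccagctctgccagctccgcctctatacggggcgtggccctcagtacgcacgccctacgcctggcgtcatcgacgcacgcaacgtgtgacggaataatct
Hspd1, chr1:55088244-55088493, minus strand, E-box beginning 80 bases before the start: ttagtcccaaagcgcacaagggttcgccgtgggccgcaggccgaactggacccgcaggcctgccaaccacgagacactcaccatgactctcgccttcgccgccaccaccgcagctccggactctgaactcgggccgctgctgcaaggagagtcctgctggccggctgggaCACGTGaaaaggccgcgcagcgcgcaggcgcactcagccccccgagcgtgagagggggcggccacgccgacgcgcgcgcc
Impdh2, the rate-limiting enzyme of guanine nucleotide synthesis, was at 172, 62.7 and 86.2 CPM in the comparator and at 401, 271 and 331 CPM in Lung-LMP1 (log2 fold change 1.66, SE of 0.4, edgeR adjusted p = 0.0299). Hspd1, the mitochondrial chaperonin Hsp60, was at 594, 418 and 204 CPM and at 1675, 855 and 1304 CPM (log2 fold change 1.68, SE of 0.44, edgeR adjusted p = 0.037). For both genes every tumour library was above every normal one. Partners of Myc were mostly not called. Of 11 genes of the Max network 1 rose and 1 fell, where 9.01% of all genes rose and 13.7% fell. The one that fell was Mxd4, a repressor that competes with Myc for Max, at 13, 15 and 34.3 CPM and at 2.44, 4.59 and 1.6 CPM (log2 fold change -2.83, SE of 0.58, edgeR adjusted p = 0.0204).

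Lipid, sugar and amino acid genes moved in smaller numbers, beside 9.01% of all genes higher and 13.7% lower. Of 13 fatty acid synthesis genes, 3 rose and 0 fell (7 higher and 0 lower without comparator replicate 1). Scd2, a desaturase that makes monounsaturated fatty acids, was at 1797, 289.6 and 940.3 CPM in the comparator and at 4248, 5199 and 5177 CPM in Lung-LMP1 (log2 fold change 2.29, SE of 0.6, edgeR adjusted p = 0.038). Elovl5, an elongase of polyunsaturated fatty acids, was at 84.2, 38.6 and 57.7 CPM and at 181, 175 and 199.7 CPM (log2 fold change 1.64, SE of 0.3, edgeR adjusted p = 0.0179). Of 22 sterol synthesis genes 1 rose with all libraries and 16 without comparator replicate 1. That gene was Dhcr7, the last enzyme of cholesterol synthesis, at 99.5, 47.2 and 66.5 CPM and at 227, 205 and 190.3 CPM (log2 fold change 1.57, SE of 0.3, edgeR adjusted p = 0.0183). Those 3 enzymes were above the comparator in every tumour library. Most glycolysis genes did not pass, with 2 of 16 higher (6 higher and 1 lower without comparator replicate 1) and a median of 0.19. The lactate transporter Slc16a1, at 84.5, 55.9 and 47.3 CPM and at 453, 310.5 and 408 CPM, was one of them (log2 fold change 2.66, SE of 0.3, edgeR adjusted p = 0.00985). Pdk1, a hypoxia-responsive kinase that diverts pyruvate from mitochondria, was one of 2 of 12 hypoxia genes that rose, at 51.3, 16.4 and 55.2 CPM and at 168, 313 and 285 CPM (log2 fold change 2.65, SE of 0.5, edgeR adjusted p = 0.018). In the amino acid response driven by the factor ATF4, 4 of 18 fell and 1 rose (2 higher and 6 lower without comparator replicate 1). Those that fell included both chains of the cystine transporter: Slc7a11, at 1870.1, 2632 and 3436 CPM and at 534, 853 and 1047 CPM (log2 fold change -1.69, SE of 0.35, edgeR adjusted p = 0.0207), and Slc3a2, at 734, 1478 and 1439 CPM and at 321, 384 and 406 CPM (log2 fold change -1.7, SE of 0.32, edgeR adjusted p = 0.018). Slc3a2 is also the partner chain of Slc7a5, which rose. The one that rose was Phgdh, the first enzyme of serine synthesis, at 369, 266 and 254 CPM and at 509.8, 568 and 632 CPM (edgeR adjusted p = 0.027).

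For structural ribosomal proteins and respiratory chain subunits no common direction held, and most did not pass (9.01% of all genes rose and 13.7% fell). Of 75 cytosolic ribosomal protein genes tested, 3 rose and 13 fell, with a median log2 fold change of -0.22. After the length and GC correction 7 rose and 4 fell, and with the Normal_nasopha columns of the other table in place of the comparator 49 rose and 6 fell. Rps28 was at 310.0, 349.9 and 401 CPM in the comparator and at 151, 153 and 156 CPM in Lung-LMP1 (log2 fold change -1.19, SE of 0.19, edgeR adjusted p = 0.0155), but its log2 fold change was 1.85 against the Normal_nasopha columns, where it was at 32.8, 38.8 and 44.1 CPM. These genes have many near-identical copies, so the 2 tables may assign their reads differently; this was not tested. Of 78 respiratory chain and ATP synthase subunits 4 rose and 13 fell, and 16 rose and 4 fell after the length and GC correction. Without comparator replicate 1 the ribosomal counts were 3 higher and 21 lower and the respiratory counts 12 higher and 16 lower. Ndufs6, a subunit of complex I, was at 66.6, 70 and 60.7 CPM and at 17.7, 19.5 and 18.8 CPM (log2 fold change -1.8, SE of 0.19, edgeR adjusted p = 0.00972), and kept its call in 15 of 16 alternatives.

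Genes of the signals that LMP1 is known to feed rose in small numbers. Of 20 NF-kB targets tested, 3 rose and 0 fell, where 9.01% of all genes rose, and with each library left out 10, 5, 1, 0, 1 and 0 rose. Ccl2, a chemokine that attracts monocytes, was at 2.59, 0.0567 and 0.361 CPM in the comparator and at 221, 197 and 87 CPM in Lung-LMP1 (log2 fold change 7.41, SE of 1.14, edgeR adjusted p = 0.0144). Tnfaip2, an NF-kB target induced by TNF, was at 414, 169 and 250.5 CPM and at 1010.4, 1379 and 808 CPM (log2 fold change 1.96, SE of 0.38, edgeR adjusted p = 0.0194). Both genes were without overlap between groups, while the neutrophil chemokine Cxcl5 overlapped widely, at 305, 7.26 and 94.5 CPM and at 140.4, 385 and 36.6 CPM (edgeR adjusted p = 0.786). Of 18 adaptors and kinases that LMP1 engages, 2 rose and 0 fell, near the 9.01% of all genes (0 rose after the length and GC correction; 3 higher and 1 lower without comparator replicate 1): Chuk, the kinase IKKalpha, at 69.7, 77.6 and 56.7 CPM and at 123, 117 and 126 CPM (log2 fold change 0.86, SE of 0.19, edgeR adjusted p = 0.0242), and Birc3, the ubiquitin ligase cIAP2, at 17.4, 7.43 and 9.8 CPM and at 24.7, 51.4 and 31.8 CPM (log2 fold change 1.66, SE of 0.42, edgeR adjusted p = 0.0346). Of 13 NF-kB subunits and inhibitors 2 rose and 0 fell (6 higher and 0 lower without comparator replicate 1), and one of them was Rel, which encodes c-Rel, at 11.6, 5.73 and 8.06 CPM and at 21.8, 22.1 and 19.5 CPM (log2 fold change 1.34, SE of 0.33, edgeR adjusted p = 0.0314). Ctr and Lung-Ctr, which lack LMP1 by label, were at 169.6, 139 and 240.4 and at 437 and 17.8 CPM for Ccl2 and at 58.1, 38.2 and 19.2 and at 71.4 and 16.4 CPM for Birc3. Some tumour libraries without LMP1 thus lay above every Lung-LMP1 library for both genes.

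Immediate early genes, which growth signals induce within minutes and which include AP-1 subunits, had more higher calls than lower ones. Of 15, 5 rose and 2 fell, where 9.01% of all genes rose and 13.7% fell; with each library left out 5, 4, 3, 3, 3 and 0 rose. Fosb was at 13, 8.39 and 3.97 CPM in the comparator and at 180.3, 381 and 402 CPM in Lung-LMP1 (log2 fold change 5.26, SE of 0.56, edgeR adjusted p = 0.00972). Fos was at 32, 15.8 and 14.4 CPM and at 324, 755 and 725 CPM (log2 fold change 4.87, SE of 0.5, edgeR adjusted p = 0.00927). Egr1, a zinc finger factor, was at 171, 188 and 122 CPM and at 424, 702 and 601 CPM (log2 fold change 1.86, SE of 0.27, edgeR adjusted p = 0.0132). All 3 had every tumour library above every normal one. Fosl1, the AP-1 subunit Fra-1, had the opposite direction, at 60.5, 67.2 and 22.7 CPM and at 11.6, 6.49 and 7.1 CPM (log2 fold change -2.55, SE of 0.47, edgeR adjusted p = 0.018), also without overlap. Among receptors and ligands of the EGF family 2 of 11 fell and 0 rose, where 13.7% of all genes fell (2 higher and 2 lower without comparator replicate 1): Epgn, which encodes epigen, at 10.3, 5.73 and 14.3 CPM and at 0.406, 0.857 and 0.16 CPM (log2 fold change -4.35, SE of 0.71, edgeR adjusted p = 0.0161), and Areg, which encodes amphiregulin, at 210.5, 36.1 and 57.7 CPM and at 10.4, 22.7 and 13.5 CPM (log2 fold change -2.69, SE of 0.7, edgeR adjusted p = 0.0364). Feedback inhibitors of ERK split, with Spred1 higher, at 76.8, 41.3 and 54.5 CPM and at 144, 188 and 157 CPM (edgeR adjusted p = 0.0172), and Spred3 lower, at 22.6, 20.4 and 36.8 CPM and at 2.91, 6.73 and 3.67 CPM (edgeR adjusted p = 0.0166).

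Interferon response genes varied more within the groups than between them. Their mean log2(CPM + 0.5) was 1.85, 3.86 and 1.98 in the comparator and 2.48, 5.17 and 1.92 in Lung-LMP1, highest in replicate 2 of each. In edgeR 0 of 25 passed (1 at an unadjusted p under 0.05, 1 higher by DESeq2), and the median moved between -0.67 and 1.83 when 1 library was left out. Antigen presentation genes were likewise mixed, with 1 of 13 higher and 1 lower, where 9.01% of all genes were higher and 13.7% lower. Erap1, which trims peptides for MHC class I, was at 31.9, 20.7 and 19.4 CPM in the comparator and at 81.1, 71.1 and 60.9 CPM in Lung-LMP1 (log2 fold change 1.59, SE of 0.27, edgeR adjusted p = 0.0165). Tap2, a chain of the peptide transporter, was at 23.8, 54.6 and 40 CPM and at 4.13, 9.43 and 2.15 CPM (log2 fold change -2.89, SE of 0.6, edgeR adjusted p = 0.0208).

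In developmental signalling the Wnt ligand Wnt10a was higher, while few genes of any list passed (9.01% of all genes were higher and 13.7% lower). Wnt10a was at 10.4, 4.59 and 6.8 CPM in the comparator and at 198, 122 and 89.7 CPM in Lung-LMP1, without overlap (log2 fold change 4.26, SE of 0.45, edgeR adjusted p = 0.00972). Of 17 Wnt pathway genes 2 rose and 1 fell, and the second that rose was Tcf7, a transcription factor of the pathway, at 13.2, 7.37 and 17.7 CPM and at 35.5, 34.6 and 34.7 CPM (log2 fold change 1.47, SE of 0.35, edgeR adjusted p = 0.0286). Of 23 TGF-beta and BMP pathway genes 0 rose and 4 fell (1 higher and 2 lower without comparator replicate 1), with a median of -0.74. Id1, a BMP target that blocks differentiation factors, was at 233, 21.5 and 108 CPM and at 22, 12.2 and 14 CPM (log2 fold change -2.88, SE of 0.78, edgeR adjusted p = 0.0406). Its comparator replicate 2 lay just below the highest tumour library. Notch1 was the single gene called of 12 in the Notch pathway, at 267, 111 and 244 CPM and at 92.2, 52.2 and 75.7 CPM (log2 fold change -1.48, SE of 0.38, edgeR adjusted p = 0.0366), and it did not pass without comparator replicate 1 (edgeR adjusted p = 0.056). Of 18 Hippo pathway genes 3 rose and 0 fell (0 rose after the length and GC correction; 7 higher and 0 lower without comparator replicate 1), including the Yap target Cyr61, at 74.5, 47.8 and 73.1 CPM and at 84.2, 341 and 224 CPM (log2 fold change 1.75, SE of 0.49, edgeR adjusted p = 0.0434).

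Hox genes, which set position along the body axis, were near 0 in the comparator, where 35, 37 and 36 of the 39 had 0 counts. The tables list 39 Hox genes, of which 6 were abundant enough to test, and all 6 were higher (6, 6, 4, 1, 5 and 0 with each library left out). These passed the filter on low counts through the tumour group alone, so that their direction was fixed by it and their number supports nothing. The summed level of all 39 was 0.48, 0.11 and 0.18 CPM in the comparator and 55.7, 22.8 and 37.1 CPM in Lung-LMP1. Hoxa3 (chr6:52169062-52213336, minus strand) had 0 counts in all comparator libraries and was at 21.3, 14.3 and 19 CPM in Lung-LMP1, at least 308-fold higher (edgeR adjusted p = 0.00927). Its neighbours Hoxa2, at 6.7, 2.14 and 5.98 CPM, Hoxa4, at 5.69, 1.71 and 3.03 CPM, and Hoxa5, at 5.62, 0.979 and 4.31 CPM, were at 0 counts in the comparator as well. They were at least 83.8-fold, 58.9-fold and 61.6-fold higher. Another was Hoxb2, on a different chromosome and named after its values were seen, at 3.52, 1.04 and 0.798 CPM and at least 30.3-fold higher. Lung-LMP1 replicate 2 was the lowest of the 3 for each of these 4 Hoxa genes. Normal_lung, in the other table, was at 2.38, 3.94 and 1.41 CPM for Hoxa5 and at 0.497, 0.665 and 0.146 CPM for Hoxa3.

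Other regional transcription factors went in both directions. Of 18 tested factors of the pharynx and face 3 rose and 4 fell, where 9.01% of all genes rose and 13.7% fell (6 higher and 4 lower without comparator replicate 1). Dlx5, a homeobox factor of the jaw and nasal placode, was at 2.78, 3.23 and 4.81 CPM in the comparator and at 0 counts in Lung-LMP1, at least 52.5-fold lower (edgeR adjusted p = 0.0132). Otx2, a head homeobox factor, was at 19.9, 18.6 and 137 CPM and at 0, 0 and 0.718 CPM (log2 fold change -8.02, SE of 1.52, edgeR adjusted p = 0.0184). Meis1, a Hox cofactor, was at 39.8, 23.5 and 30.3 CPM and at 11, 8.2 and 11.7 CPM (log2 fold change -1.58, SE of 0.3, edgeR adjusted p = 0.0185). All 3 were lower in every tumour library. Dlx5 passed the filter on low counts through the comparator alone, which fixed its direction. Tfap2a, the AP-2alpha factor of surface ectoderm, rose from 28.2, 27.7 and 32.1 CPM to 73.2, 72.6 and 86.4 CPM (log2 fold change 1.42, SE of 0.19, edgeR adjusted p = 0.0113). Outside that list, Osr2 and Stra6 were among the called genes of largest rise. Osr2, an odd-skipped factor of palate development, was at 0.181, 0 and 0.301 CPM and at 31.8, 31 and 24.6 CPM (log2 fold change 7.47, SE of 0.75, edgeR adjusted p = 0.00927). Stra6, the membrane receptor that takes up retinol, was at 0.603, 0 and 0.12 CPM and at 342, 46.9 and 72.4 CPM (log2 fold change 9.32, SE of 1.33, edgeR adjusted p = 0.0128), with Lung-LMP1 replicate 1 far above the other two. The lung regulator Nkx2-1 had 0 counts in Lung-LMP1, and of 13 tested lung lineage factors 1 rose and 1 fell. The one that rose was Foxp1, a forkhead repressor, at 42.9, 28.1 and 33.1 CPM and at 135, 115 and 125 CPM (log2 fold change 1.87, SE of 0.22, edgeR adjusted p = 0.00985).

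Most genes of epithelial identity and of basal cells did not pass, and their shares of calls were no larger than those of all genes (9.01% higher and 13.7% lower). E-cadherin (Cdh1) was at 705, 777 and 632 CPM in the comparator and at 929.9, 959 and 769 CPM in Lung-LMP1 (edgeR adjusted p = 0.235), and Trp63, the basal cell master regulator p63, was at 216, 58.8 and 308 CPM and at 219, 126 and 156 CPM with overlapping groups (edgeR adjusted p = 0.809). Of 28 epithelial identity genes 2 rose and 1 fell (5 higher and 2 lower without comparator replicate 1). The splicing regulator Esrp1 rose, at 166, 168 and 130.0 CPM and at 349, 429.6 and 412 CPM (log2 fold change 1.38, SE of 0.2, edgeR adjusted p = 0.0132), as did Tjp1, the tight junction scaffold ZO-1, at 152, 144 and 102 CPM and at 291, 366 and 344 CPM (log2 fold change 1.35, SE of 0.22, edgeR adjusted p = 0.0162). Of 22 basal cell genes 3 fell and 0 rose (3 higher and 1 lower without comparator replicate 1; 1, 8, 0, 0, 0 and 0 fell with each library left out), close to the 13.7% of all genes, with a median of -0.47. Basal keratin Krt5 was at 8075, 2090.2 and 5913 CPM and at 1761, 571 and 1348 CPM (log2 fold change -2.1, SE of 0.6, edgeR adjusted p = 0.0461), and its call was lost without comparator replicate 1 (edgeR adjusted p = 0.071). Its partner Krt14 was at 6344, 697 and 3126 CPM and at 830.4, 394 and 534 CPM (edgeR adjusted p = 0.0517). Lama3, a laminin chain of the basement membrane, was at 268, 181 and 412 CPM and at 113, 80.5 and 108 CPM (log2 fold change -1.5, SE of 0.34, edgeR adjusted p = 0.0251). Krt5, Krt14 and Lama3 were each lowest in replicate 2 within both groups.

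Of 23 squamous differentiation genes tested, 8 fell and 0 rose, where 13.7% of all genes fell (10, 8, 3, 4, 5 and 0 fell with each library left out). The count that rose was 2 without comparator replicate 1, where 15.9% of all genes rose. The median log2 fold change of this list, -1.79, lay between -2.22 and -1.16 when 1 library was left out. Krt16, a keratin of activated squamous epithelium, was at 931, 362 and 1025 CPM in the comparator and at 57, 12.7 and 16.6 CPM in Lung-LMP1 (log2 fold change -4.72, SE of 0.75, edgeR adjusted p = 0.0156). Cnfn, which encodes cornifelin of the cornified envelope, was at 34.6, 63.3 and 39.1 CPM and at 7.31, 7.47 and 6.3 CPM (log2 fold change -2.68, SE of 0.31, edgeR adjusted p = 0.00985). Sbsn, which encodes suprabasin, was at 93.2, 299.7 and 132 CPM and at 28, 11 and 12.6 CPM (log2 fold change -3.32, SE of 0.58, edgeR adjusted p = 0.0169). None of these overlapped. Krt4, a keratin of inner squamous linings, did not follow them: it was at 141, 2.04 and 13.4 CPM and at 361, 335 and 494 CPM, not called with all libraries (edgeR adjusted p = 0.129) and higher without comparator replicate 1 (log2 fold change 5.74, edgeR adjusted p = 0.00703). Of 10 desmosome genes 3 fell and 0 rose, beside the same 13.7% of all genes (3, 5, 1, 0, 0 and 0 fell with each library left out). Among those that fell was the cadherin Dsc3, at 109.9, 90.1 and 404 CPM and at 26.1, 7.83 and 36.2 CPM (log2 fold change -3.09, SE of 0.78, edgeR adjusted p = 0.0342).

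Several mesenchymal genes and matrix proteases fell. Of 15 mesenchymal genes tested 6 fell and 1 rose, where 13.7% of all genes fell and 9.01% rose (6, 8, 3, 1, 2 and 0 fell with each library left out). The count that rose was 2 without comparator replicate 1, where 15.9% of all genes rose. Vimentin (Vim) was at 2.65, 0.397 and 2.47 CPM in the comparator and at 0, 1.04 and 0 CPM in Lung-LMP1. It was low in both groups, at 0 in Lung-LMP1 replicates 1 and 3, and not called (edgeR adjusted p = 0.253). Sparc, a matrix glycoprotein, was at 41.6, 8.51 and 123 CPM and at 0.271, 1.41 and 1.6 CPM (log2 fold change -5.71, SE of 1.13, edgeR adjusted p = 0.0196). Foxc2, a forkhead factor, was at 15.6, 30.7 and 8.72 CPM and at 0.406, 0.306 and 0.558 CPM (log2 fold change -5.4, SE of 0.63, edgeR adjusted p = 0.00985). Twist2, a helix-loop-helix factor, was the one that rose, at 2.53, 0.113 and 0.662 CPM and at 48.1, 22.4 and 30.6 CPM (log2 fold change 4.96, SE of 0.95, edgeR adjusted p = 0.0186). Sparc and Foxc2 were thus low in the tumour libraries and varied within the comparator. Foxc2 passed the filter on low counts through the comparator alone, which fixed its direction. Of 19 proteases and protease inhibitors 7 fell and 0 rose, against the same 13.7% (7, 8, 5, 1, 4 and 0 fell with each library left out), with a median of -1.77. Without comparator replicate 1 the count that rose was 1, beside the same 15.9%. Plaur, the urokinase receptor, was at 253, 275 and 114 CPM and at 28.1, 42.2 and 28.2 CPM (log2 fold change -2.68, SE of 0.38, edgeR adjusted p = 0.0128). Serpine2, an inhibitor of thrombin and urokinase, was at 93.2, 44 and 352 CPM and at 1.29, 3.12 and 4.55 CPM (log2 fold change -5.77, SE of 0.95, edgeR adjusted p = 0.0162). Fibroblast markers, 12 genes, summed to 104, 17.1 and 96.0 CPM in the comparator and 72.5, 55.1 and 60.4 CPM in Lung-LMP1, mostly Fbln1, with 1 or 2 of the 12 at 0 counts in each comparator library and 8 or 9 in each tumour library. Col1a2, Col3a1 and Lum had 0 counts in all 3 tumour libraries and up to 1.20, 0.902 and 0.241 CPM in the comparator, and the part of such cells in these results was not tested. In the comparator, Sparc, Serpine2 and Fbln1 were each lowest in replicate 2.

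**Figure D5:**
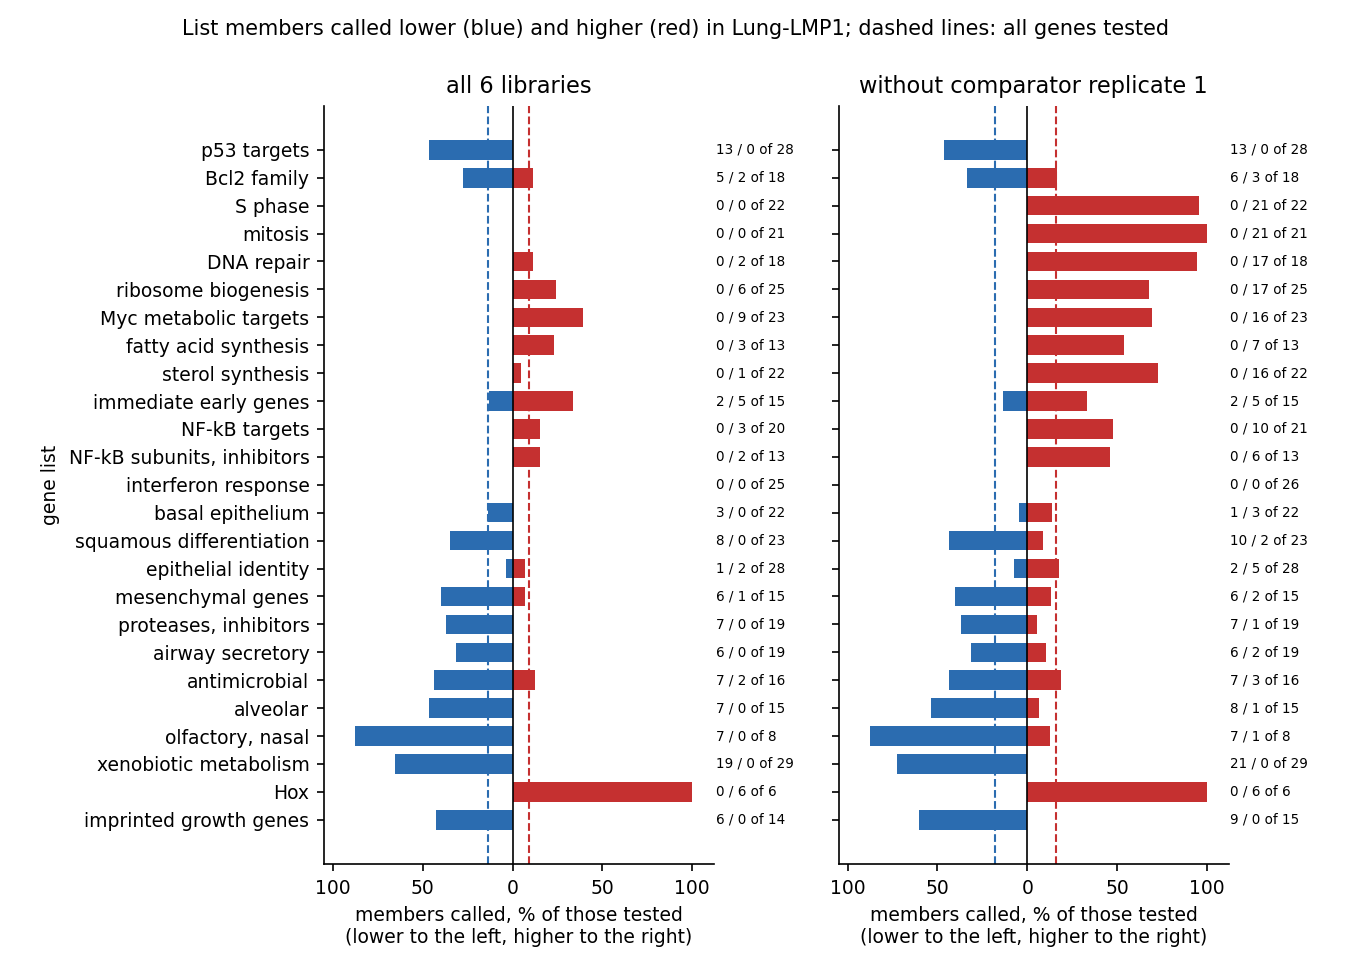
Percent of the tested members of 25 gene lists called lower (blue, to the left) and higher (red, to the right), with all 6 libraries on the left panel and without comparator replicate 1 on the right panel. Dashed lines mark all genes tested (13.7% lower and 9.01% higher on the left, 17.8% and 15.9% on the right); mitosis and S-phase bars appear on the right panel only, while 13 of 28 p53 targets are lower on both.

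Genes of detoxification fell in large numbers. Of 29 xenobiotic metabolism genes tested, 19 fell and 0 rose, where 13.7% of all genes fell. With each library left out 21, 21, 16, 7, 11 and 0 fell, and the median of -3.33 lay between -3.71 and -2.45 when any 1 library was left out. Gsta1, a glutathione S-transferase, was at 597, 2524 and 3309 CPM in the comparator and at 5.35, 2.33 and 9.09 CPM in Lung-LMP1 (log2 fold change -8.57, SE of 0.95, edgeR adjusted p = 0.00985). The related Gsta2 was at 130.0, 637 and 958 CPM and at 0.271, 0.49 and 0.798 CPM (log2 fold change -10.1, SE of 1.0, edgeR adjusted p = 0.00927), and reads of this near-identical pair may be shared between them. Comparator replicate 1 was the lowest of its group for both. Gsta4, which detoxifies lipid aldehydes, was lower but still abundant, at 2463, 2608 and 4795 CPM and at 308, 294 and 329.9 CPM (log2 fold change -3.39, SE of 0.34, edgeR adjusted p = 0.00927). Aldh1a3, which makes retinoic acid, was at 307, 197 and 185 CPM and at 18.6, 13.4 and 10.1 CPM (log2 fold change -4.01, SE of 0.35, edgeR adjusted p = 0.00927). Cyp1b1, a cytochrome P450 induced by aryl hydrocarbons, was at 68.1, 94.9 and 46 CPM and at 2.37, 3.43 and 4.63 CPM (log2 fold change -4.31, SE of 0.4, edgeR adjusted p = 0.00927). Gsta1, Gsta2, Gsta4, Aldh1a3 and Cyp1b1 had no overlap between groups. Gstp1, another transferase, was at 459.9, 638 and 1026 CPM and at 330.3, 332 and 431 CPM and did not pass with all libraries (edgeR adjusted p = 0.0756).

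Markers of olfactory and nasal gland tissue were near 0 in Lung-LMP1. Of 8 tested 7 were lower, where 13.7% of all genes were lower (7, 4, 3, 1, 3 and 0 with each library left out). Of the 8, 5 had 0 counts in the tumour group, so that they passed the filter through the comparator alone. Their direction was fixed by that filter, and the number of calls supports nothing. The 13 markers in the tables summed to 229.5, 649.7 and 2888 CPM in the comparator and to 3.86, 4.16 and 3.03 CPM in Lung-LMP1. Cyp2a5, a nasal cytochrome P450 that metabolises odorants, was at 152, 622 and 2592 CPM and at 0.0677, 0 and 0 CPM, where the tumour group held 1 count in all (comparator over tumour ratio 48973, 95% counting interval 8789.8 to 1934300; edgeR adjusted p = 0.00985). Obp1a, which encodes an odorant binding protein, was at 33.4, 8.17 and 8.9 CPM and at 0 counts in Lung-LMP1, at least 245-fold lower (edgeR adjusted p = 0.0159). Cyp2g1, the olfactory cytochrome, was at 1.87, 7.66 and 75.7 CPM and at 0 counts, at least 413-fold lower (edgeR adjusted p = 0.038). The level of Obp1a was highest in comparator replicate 1 and that of Cyp2g1 in replicate 3. Bpifb4, a secreted lipid-binding protein of upper airway epithelium, was at 202, 493 and 3028 CPM and at 0, 0 and 0.0798 CPM, with 1 count in the tumour group (comparator over tumour ratio 54166, 95% counting interval 9722 to 2139400; edgeR adjusted p = 0.00985). Like Cyp2g1, Cyp2a5 and Bpifb4 were highest in comparator replicate 3. Omp, the marker of mature olfactory neurons, was at 2.9, 0.681 and 0.541 CPM and at 3.52, 4.16 and 2.95 CPM (edgeR adjusted p = 0.187), low in both groups. Without comparator replicate 1, 7 of the 8 tested were called lower and 1, Omp, was called higher, where 15.9% of all genes were higher.

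Secretory and defence genes fell in part. Of 19 airway secretory genes tested 6 fell and 0 rose, where 13.7% of all genes fell (6, 8, 2, 1, 4 and 0 fell with each library left out), with a median of -1.47. The count that rose was 2 without comparator replicate 1, where 15.9% of all genes rose. Ltf, which encodes the iron-binding antimicrobial protein lactoferrin, was at 4666, 674 and 1534 CPM in the comparator and at 188, 171 and 79.1 CPM in Lung-LMP1 (log2 fold change -3.95, SE of 0.77, edgeR adjusted p = 0.0194). Bpifa1, an antimicrobial surfactant of the upper airway, was at 585, 12.6 and 101 CPM and at 0, 0 and 1.52 CPM (log2 fold change -8.92, SE of 2.0, edgeR adjusted p = 0.0251). Both were highest in comparator replicate 1. Wfdc2, a protease inhibitor of airway secretions, remained high and overlapping, at 1252, 472 and 1006 CPM and at 322, 1179.5 and 452 CPM (edgeR adjusted p = 0.549). Spdef, the goblet cell regulator, was at 10, 1.19 and 0.662 CPM and at 0.0677, 7.77 and 0.399 CPM (edgeR adjusted p = 0.827). Of 16 antimicrobial and acute phase genes 7 fell and 2 rose, where 13.7% of all genes fell and 9.01% rose (7, 5, 1, 1, 1 and 0 fell with each library left out). Without comparator replicate 1 the count that rose was 3, beside the same 15.9%. Lyz2, which encodes lysozyme, was at 47.6, 9.98 and 37.7 CPM and at 0.271, 2.45 and 0.718 CPM (log2 fold change -4.75, SE of 0.93, edgeR adjusted p = 0.0193). One of the 2 that rose was the dual oxidase Duox2, which makes hydrogen peroxide at the cell surface, at 1.03, 0.454 and 1.38 CPM and at 11.1, 52.3 and 10.6 CPM (log2 fold change 4.7, SE of 0.84, edgeR adjusted p = 0.0173). Lyz2, S100a8 and S100a9 are also made by myeloid cells, and 12 leukocyte markers summed to 32.3, 289.9 and 106.2 CPM in the comparator and to 11.04, 18.4 and 18.8 CPM in Lung-LMP1. The most abundant of them was the macrophage marker Cd68, at 14.2, 288 and 98.4 CPM and at 10.5, 17.7 and 17.2 CPM (edgeR adjusted p = 0.0532). Ptprc, the pan-leukocyte marker, was at 1.09, 0 and 0.301 CPM and at 0, 0 and 0.0798 CPM, and the part of such cells in these results was not tested.

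Of 15 alveolar genes 7 fell and 0 rose, where 13.7% of all genes fell (8, 7, 6, 1, 5 and 0 fell with each library left out). The count that rose was 1 without comparator replicate 1, where 15.9% of all genes rose. Sftpc and Sftpb passed the filter on low counts through the comparator alone, so that their direction was fixed by it and their calls support nothing. Besides Sftpc, at 0 counts in Lung-LMP1 and at least 946-fold lower (edgeR adjusted p = 0.0134), Sftpb, another surfactant protein, was at 34.5, 7.83 and 7.46 CPM in the comparator and at 0, 0 and 0.239 CPM in Lung-LMP1, where the tumour group held 3 counts in all (comparator over tumour ratio 241, 95% counting interval 82.5 to 1169.5; edgeR adjusted p = 0.0162). Ager, a marker of alveolar type I cells, was at 16.4, 3.46 and 5.83 CPM and at 0.745, 0.796 and 0.479 CPM (log2 fold change -3.62, SE of 0.72, edgeR adjusted p = 0.0196). All 3 genes were highest in comparator replicate 1, and in Normal_lung Ager was at 4563, 3567 and 4790.0 CPM. Most ciliated cell genes were too low to test. Foxj1, the regulator of multiciliated cells, was among them, at 0.965, 0.0567 and 0.18 CPM and at 0.203, 1.35 and 0.399 CPM. Of 7 tested axoneme genes out of 30, 0 passed in edgeR (2 lower at an unadjusted p under 0.05, 2 lower by DESeq2). Of 6 tested regulators of ciliated cells 2 rose and 0 fell, where 9.01% of all genes rose (2, 2, 0, 0, 0 and 0 rose with each library left out). They were Rfx3, a factor that activates cilium genes, at 9.17, 3.63 and 11.4 CPM and at 32.8, 41.7 and 26.2 CPM (log2 fold change 2.07, SE of 0.45, edgeR adjusted p = 0.0241), and Myb, which acts in ciliated and in dividing precursor cells, at 4.34, 0 and 0.662 CPM and at 47.5, 22.3 and 49.1 CPM (log2 fold change 4.59, SE of 1.26, edgeR adjusted p = 0.042).

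Some imprinted growth genes fell, while few chromatin genes passed. Of 14 imprinted and fetal growth genes tested 6 fell and 0 rose, where 13.7% of all genes fell (9, 5, 4, 1, 3 and 0 fell with each library left out). Peg3, a paternally expressed zinc finger gene, was at 6.03, 14 and 15.6 CPM in the comparator and at 0.474, 0.306 and 0.479 CPM in Lung-LMP1 (log2 fold change -4.79, SE of 0.57, edgeR adjusted p = 0.00985). Mest, also paternally expressed, was at 16.2, 20.1 and 69.1 CPM and at 2.57, 2.33 and 2.47 CPM (log2 fold change -3.82, SE of 0.63, edgeR adjusted p = 0.0162). Ndn, which encodes necdin, was at 4.71, 2.5 and 12 CPM and at 0 counts, at least 93.2-fold lower (edgeR adjusted p = 0.0177). Of 18 chromatin and DNA methylation genes 2 rose and 0 fell, near the 9.01% of all genes that rose, and 8 rose without comparator replicate 1 (15.9% of all genes). The groups of Peg3, Mest and Ndn did not overlap. Peg3 and Ndn passed the filter on low counts through the comparator alone, which fixed their direction. Both chromatin genes were subunits of Polycomb repressive complex 2: Suz12, at 125, 75.3 and 68.4 CPM and at 340.3, 313 and 378 CPM (log2 fold change 1.96, SE of 0.28, edgeR adjusted p = 0.0128), and the methyltransferase Ezh2, at 55, 17.5 and 15.8 CPM and at 104, 101 and 115 CPM (log2 fold change 1.88, SE of 0.49, edgeR adjusted p = 0.0371). Stem cell factors were divided, with 3 of 16 higher, 2 lower and a median of -0.15. Cd44, an adhesion receptor for hyaluronan and one of the 3, was at 502, 178 and 341 CPM and at 1121, 1858 and 1042 CPM (log2 fold change 2.0, SE of 0.43, edgeR adjusted p = 0.0231).

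Markers of endothelium and muscle were low in both groups. Of 10 endothelial markers the sum was 13.9, 14.1 and 35.2 CPM in the comparator and 9.1 to 10.3 CPM in Lung-LMP1, and of 8 muscle markers 1.69 to 3.55 CPM and 0.41 to 1.28 CPM. Sox10, which marks Schwann and gland cells, was at 16.7, 6.01 and 3.67 CPM in the comparator and at 0 counts in Lung-LMP1, at least 128-fold lower (edgeR adjusted p = 0.0167).

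The other tumour groups share the organoid setting, and 1 fit over the 13 libraries whose tables use gene symbols compared Lung-LMP1 with each. Against Lung-Ctr 0 of 14096 genes passed in edgeR (0%; 1726 at an unadjusted p under 0.05), and against Ctr 0 passed (0%; 1773 at an unadjusted p under 0.05). Against the LMP1 group, of the same labelled genotype, 1081 passed (7.67%), 621 higher and 460 lower in Lung-LMP1. Hoxa3 was at 24, 7.56 and 12.52 CPM in Ctr, 1.6 and 11.5 CPM in Lung-Ctr and 8.52 and 8.32 CPM in LMP1. Cdkn2a was at 311, 229 and 219 CPM in Ctr, 122 and 360.3 CPM in Lung-Ctr and 381 and 331 CPM in LMP1. All of these tumour libraries were above the comparator for both genes. Krt5 was at 4.54 and 12.7 CPM in LMP1, below Lung-LMP1 (log2 fold change 7.26, edgeR adjusted p = 0.033), and Trp63 was at 2.6 and 1.96 CPM (log2 fold change 6.28, edgeR adjusted p = 0.0115). Vim was at 1350.3 and 1017 CPM in LMP1 (log2 fold change -11.51 for Lung-LMP1 over LMP1, edgeR adjusted p = 0.0325). Lung-LMP1 thus had lower Vim and higher Krt5 and Trp63 than the other group of its genotype. None of these genes passed against Ctr or Lung-Ctr, where their levels are not reported here. The r of log2 counts of Lung-LMP1 libraries was 0.865 to 0.899 with LMP1 and 0.914 to 0.970 with Ctr and Lung-Ctr. Whether these genes set Lung-LMP1 or the LMP1 group of 2 libraries apart was not tested.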

How the data were processed

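Raw read counts per gene symbol, as deposited by the authors, were read for 3 Lung-LMP1 libraries from one table and for 3 normal libraries from another and joined on the symbol (24421 genes). Reads were aligned with STAR to mm10, per the submitters' processing notes, which also name DESeq and DESeq2. No version and no step of counting is given in the sources used here. The 27 entries whose symbol reads as a date stayed in these joined counts, and none of them is named here. Entries of this kind were left out of the Normal_nasopha and Normal_lung columns. Genes were filtered with filterByExpr, scaled by TMM and tested with edgeR 4.0.16 (robust quasi-likelihood F-test, Benjamini-Hochberg adjustment, 6 libraries, no covariate, 4 residual degrees of freedom, common biological coefficient of variation 0.422). The standard error of a log2 fold change is its size divided by the square root of F. CPM are counts per library total, and a list mean is the mean of log2(CPM + 0.5). Nothing in the labels says that replicates are separate animals, so a p-value here measures spread among these samples, which may be technical, and floors and intervals (exact, 95%) cover counting error only. Levels of different genes are not per length and are not compared. Gene positions are those of GENCODE vM21 and promoters those of RefSeq GRCm38.p6.

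The members and the 59 gene lists were chosen with earlier results of these data known. Genes were named by rule: the 3 genotype genes, the 12 called genes of largest change in each direction, and for each list up to 5 called members of smallest adjusted p, up to 3 in the other direction and up to 2 not called of highest level, plus defining regulators; exceptions are marked, and a few of the genes so chosen are not reported here. Alternatives were DESeq2 1.42.0, other scalings, no filter, each library left out, a replicate block, a length and GC correction (mgcv 1.9.3), a null of a 2-fold change, a 13-library fit, the Normal_nasopha columns and, added after the data were seen, limma 3.58.1 voom quality weights. The fit was tested on simulated data with a smaller spread than these libraries have and no library set apart. That test therefore does not show how the fit behaves on these data. Replicate numbers were not taken to pair the samples.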

Additional observations from a re-analysis of the deposited data

How the results depend on the processing

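With all 6 libraries 2937 genes passed, 1166 higher and 1771 lower. When 1 library was left out, the total ran from 3 to 4480, the higher calls from 1 to 2111 and the lower calls from 2 to 2369; the lowest values came without Lung-LMP1 replicate 3 and the highest without comparator replicate 1. A null of a 2-fold change left 334 calls, 66 higher and 268 lower, and the length and GC correction left 712 higher. The count was 4516 (2061 higher) in the fit of 13 libraries, 4473 (1959 higher) in DESeq2 and 4728 (2126 higher) with voom quality weights, an alternative chosen after seeing the data, in which Lung-LMP1 replicate 3 had a weight of 6.05 and the other libraries 0.42 to 1.16. The cause of these shifts was not tested. RLE scaling gave 2952 calls, no filter 2764 and the Normal_nasopha columns 3832. Of the 109 called genes named, 109 kept their call in DESeq2, 108 with upper-quartile scaling, 95 after the length and GC correction and 49 with the 2-fold null. Rps28 was reversed with the Normal_nasopha columns (log2 fold change 1.85). Replicate numbers were not taken to pair the samples, since deviations of same-numbered samples correlated at 0.189, -0.013 and 0.126. Those of differently numbered samples correlated at -0.258 to 0.166, and so few values cannot exclude a pairing. With the replicate number as a block 2485 genes passed, 2176 of them among the 2937. Depth limits single genes near 0.17 to 0.24 CPM.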
